A study of Oryctolagus cuniculus with 12 samples.

Results

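Elastic fibre and microfibril genes were followed through hypertrophic scarring of the rabbit ear and its treatment. The treatments were 5-fluorouracil, an antimetabolite that blocks thymidylate synthesis, and a patch with a prodrug of 5-fluorouracil acetic acid. The list held 10 symbols for structural proteins of the elastic fibre, taken by name and not by their values. Of these, 8 had a row among the 29587 genes of the expression table: FBN1, FBN2, MFAP4, MFAP5, FBLN1, FBLN2, FBLN5 and EMILIN1. ELN and MFAP2 were not analysed here, so the elastin core itself is not covered. All 8 genes passed the filter on low expression, which 13287 genes passed.

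Elastic fibres give skin its recoil. They consist of a core of cross-linked elastin on a scaffold of microfibrils, whose backbone is built from fibrillins. Microfibril-associated glycoproteins, fibulins and emilins attach to this scaffold, guide the deposition of elastin or sit where elastin meets the microfibril, and microfibrils also hold latent TGF-β in the matrix. In hypertrophic scars, fibroblasts deposit excess collagen, and the elastic fibre network is known to be sparse and disorganised.

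Bulk RNA-seq was carried out on full thickness ear tissue of female wild type rabbits aged 10 to 12 weeks, with 4 groups of 3 rabbits and different rabbits in each group. NS was normal ear skin without a wound. HS was untreated hypertrophic scar, formed after the epidermis, dermis and perichondrium of the ventral ear had been removed and the new tissue had been repeatedly scraped away, which makes the model a forced scar over cartilage. Lesions in the drug-loaded MNs group received 1 microneedle patch each, with tips of gelatin methacryloyl that carried a prodrug of 5-fluorouracil acetic acid. Those in the 5-Fu injection group were injected with 120 μg of 5-fluorouracil itself in 0.1 mL. Both groups were treated on days 22, 29 and 36 after resection. All tissue was harvested on day 43. A patch without drug was not analysed here, so drug and patch cannot be told apart in the drug-loaded MNs group. Each sample held both skin surfaces and the cartilage, and the labels do not say whether a sample was 1 lesion or several, or which rabbit of its group it came from, so p-values measure the spread between these samples.

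Expression was given as FPKM, the fragments on a gene scaled to its length and to a library size. Levels can thus be set side by side between genes of a sample. Between samples they also depend on the scaling, which was not by total reads. Between 10521472 and 14043667 reads fell on genes per sample, and each of the 8 genes was covered by 175 to 34200 reads in a sample. The sum of the fibroblast markers, 8 measured of 9, followed the scar. It was 2608 to 3676 FPKM in NS, 37674 to 49404 in HS, 19197 to 27537 in drug-loaded MNs and 5368 to 27038 in 5-Fu injection. COL1A1, COL1A2 and COL3A1 were the largest parts of this sum in HS. THY1 overlapped between HS, at 190 to 587 FPKM, and NS, at 129 to 213 FPKM. The wide range of the sum in 5-Fu injection came from 5-Fu injection replicate 2, which stood apart in the collagen chains and LUM. Its COL1A1 was at 9220 FPKM against 1053 and 1438 in replicates 1 and 3. For THY1 and FAP, replicate 2 lay between replicates 1 and 3. Counts of called genes are given with and without it for the 8 genes against HS and drug-loaded MNs, and for the wider pathway against HS. Calls of markers and of single pathway genes are given only with it. Cartilage markers ranged widely within every group, for example COL2A1 from 247 to 3607 FPKM within HS. In bulk tissue, fewer cells of a type and less RNA per cell cannot be told apart.

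In every one of the 12 samples, MFAP4 was the most and FBN2 the least abundant of the 8 transcripts per unit of length. The reads on the 8 genes made up 0.146% to 0.194% of all reads in NS, 0.542% to 0.782% in HS, 0.298% to 0.382% in drug-loaded MNs and 0.151% to 0.327% in 5-Fu injection. The HS range lay above those of the other groups, and the drug-loaded MNs range lay between HS and NS, whereas 5-Fu injection replicate 2, at 0.327%, lay within the range of drug-loaded MNs and the other 5-Fu samples reached at most 0.167%. The plot of FPKM by sample shows each gene.

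**Figure D1:**
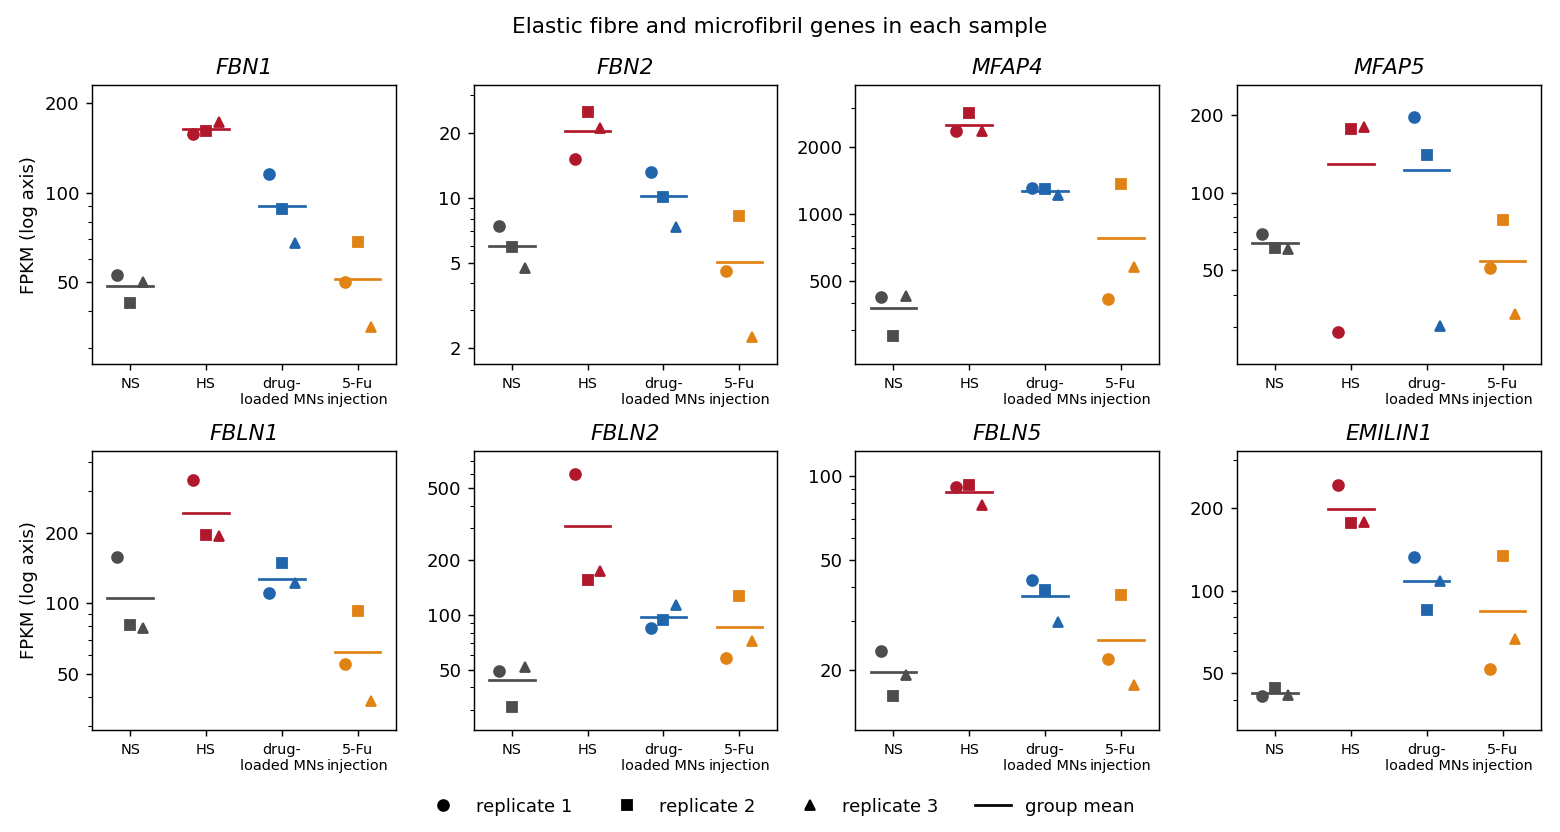
FPKM of the 8 elastic fibre and microfibril genes in each of the 12 samples, on a log axis. Points are single samples, with the marker giving the replicate, and lines are group means of 3 samples. The HS points lie above the NS points in 7 genes, and MFAP5 is the exception, with HS replicate 1 at 28.5 FPKM.

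The fibrillins form the microfibril backbone. FBN1, the fibrillin of adult tissue (ENSOCUG00000003866, chromosome 17 from 23801096 to 24059362, plus strand), was expressed at 52.9, 42.5 and 50.1 FPKM in the NS replicates and at 157.6, 161.5 and 172.7 FPKM in HS. It measured 115.6, 88.0 and 67.9 FPKM in drug-loaded MNs and 50.1, 68.3 and 35.4 FPKM in 5-Fu injection. The HS samples were above all others, the drug-loaded MNs samples were intermediate, with replicate 3 just under the highest 5-Fu sample, and the 5-Fu samples overlapped NS. Mean expression was 48.5 ± 5.35 FPKM in NS, 164 ± 7.84 in HS, 90.5 ± 24.0 in drug-loaded MNs and 51.2 ± 16.5 in 5-Fu injection (SD, n = 3 each). FBN1 rose in HS against NS with a log2 fold change of 1.74 ± 0.24 (SE, limma adjusted p = 0.00225).

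FBN2, the fibrillin best known from development (ENSOCUG00000008226, chromosome 3 from 11896388 to 12132314, minus strand), was expressed at 7.38, 5.91 and 4.70 FPKM in NS and 15.1, 25.1 and 21.2 FPKM in HS. It measured 13.2, 10.1 and 7.33 FPKM in drug-loaded MNs and 4.57, 8.20 and 2.25 FPKM in 5-Fu injection. Again each HS sample exceeded every sample of the other groups, and each treated group overlapped NS. The gene rose in HS with a log2 fold change of 1.60 ± 0.35 (SE, limma adjusted p = 0.02). This call did not pass when NS replicate 2, NS replicate 3, HS replicate 2 or HS replicate 3 was left out (limma adjusted p = 0.0544 to 0.0734, with log2 fold changes of 1.45 to 1.61).

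Within a sample, the balance of the fibrillins can be read as the log2 ratio of FBN2 to FBN1, which does not depend on the scaling between samples. It averaged -3.03 ± 0.33 in NS, -3.03 ± 0.35 in HS, -3.15 ± 0.05 in drug-loaded MNs and -3.50 ± 0.46 in 5-Fu injection (SD, n = 3 each, without a test). FBN1 was thus about 8.19 times as abundant as FBN2 in both NS and HS, 8.90 times in drug-loaded MNs and 11.3 times in 5-Fu injection. The group ranges overlapped, and the means of NS and HS differed by far less than the spread within either group.

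The microfibril-associated proteins behaved differently from each other. MFAP4, which binds fibrillin, elastin and collagen (ENSOCUG00000015162, scaffold GL018817 from 320282 to 322659, plus strand), was expressed at 425, 282 and 426 FPKM in NS and at 2369, 2849 and 2351 FPKM in HS. It measured 1306, 1296 and 1213 FPKM in drug-loaded MNs and 413, 1360 and 575 FPKM in 5-Fu injection. HS and drug-loaded MNs each formed a tight group clear of NS, while 5-Fu injection replicate 1 fell within the NS values and replicate 2 lay above all 3 drug-loaded MNs samples. The mean rose from 378 ± 83.0 FPKM in NS to 2523 ± 283 in HS (SD, n = 3 each). With a log2 fold change of 2.76 ± 0.36 (SE, limma adjusted p = 0.00194), MFAP4 had the highest fitted log2 fold change of the 8 genes between HS and NS with all samples in the fit, while without HS replicate 2 that of FBLN2 was higher, at 2.88 against 2.67.

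MFAP5, a small glycoprotein that binds fibrillins (ENSOCUG00000002407, chromosome 8 from 33976092 to 33991847, minus strand), was expressed at 68.9, 61.0 and 60.4 FPKM in NS and at 28.5, 177 and 181 FPKM in HS. It measured 197, 140 and 30.0 FPKM in drug-loaded MNs and 50.8, 78.5 and 33.5 FPKM in 5-Fu injection. NS was uniform, whereas HS and drug-loaded MNs each held 1 sample below NS and a pair of samples well above it. The log2 fold change of HS against NS was 0.62 ± 0.76 (SE, limma adjusted p = 0.667) and became 1.48 (limma adjusted p = 0.242) without HS replicate 1. MFAP5 was the gene with the largest error among the 8, and its correlation with the other 7 over the 12 samples, given as a description since the samples share their groups, ranged from -0.04 with FBLN2 to 0.63 with FBN2. By contrast, FBLN5 and FBN1 correlated at 0.974, EMILIN1 and MFAP4 at 0.959 and FBN2 and FBN1 at 0.955.

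The fibulins connect microfibrils, elastin and basement membranes. FBLN5, which binds tropoelastin and is required for elastic fibre assembly (ENSOCUG00000013175, chromosome 20 from 13959823 to 14038823, plus strand), was expressed at 23.5, 16.2 and 19.1 FPKM in NS and at 91.4, 92.8 and 78.9 FPKM in HS. It measured 42.3, 38.9 and 29.9 FPKM in drug-loaded MNs and 21.9, 37.2 and 17.7 FPKM in 5-Fu injection. HS stood well clear of the remaining samples, drug-loaded MNs stood clear of NS, and 5-Fu injection overlapped both NS and drug-loaded MNs. FBLN5 rose in HS with a log2 fold change of 2.12 ± 0.25 (SE, limma adjusted p = 0.0013), the lowest adjusted p among the 8 genes.

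FBLN2, found at the interface of microfibrils and elastin and in vessel walls (ENSOCUG00000005900, chromosome 9 from 4855903 to 4921923, minus strand), was expressed at 49.3, 31.0 and 51.6 FPKM in NS and at 600, 157 and 174 FPKM in HS. It measured 85.0, 94.0 and 113 FPKM in drug-loaded MNs and 58.2, 127 and 72.3 FPKM in 5-Fu injection. HS replicate 1 was far above the other HS samples, but every HS sample exceeded all samples of the other groups, and both treated groups lay above NS without overlap. FBLN2 rose in HS with a log2 fold change of 2.54 ± 0.46 (SE, limma adjusted p = 0.00877), or 1.92 (limma adjusted p = 0.0118) without HS replicate 1.

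FBLN1, a fibulin of elastic fibres and basement membranes, was expressed at 158, 80.4 and 78.8 FPKM in NS and at 334, 196 and 194 FPKM in HS. It measured 111, 149 and 122 FPKM in drug-loaded MNs and 55.3, 92.6 and 38.4 FPKM in 5-Fu injection. Here NS replicate 1 and HS replicate 1 were high within their groups, HS still lay above NS, and drug-loaded MNs overlapped NS. The log2 fold change of HS against NS was 1.21 ± 0.35 (SE, limma adjusted p = 0.0626), which did not pass, and without NS replicate 1 it was 1.54 (limma adjusted p = 0.042).

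The annotation splits fibulin-1. The row with the symbol (ENSOCUG00000011137, scaffold GL019233 from 6793 to 29597, minus strand) has a gene length of 1391 bases, and a second row described as fibulin-1 without a symbol (ENSOCUG00000029818, scaffold GL019018 from 244351 to 245742) measured 9.28 to 41.7 FPKM. Reads of the gene may have been split between these models, so the FBLN1 level is uncertain. With both rows summed, a choice made after the values were seen, the log2 fold change of HS against NS was 1.16 (limma adjusted p = 0.0667).

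EMILIN1, a glycoprotein at the border of elastin and microfibrils that also restrains TGF-β maturation (ENSOCUG00000006872, chromosome 2 from 158973391 to 158980409, minus strand), was expressed at 41.3, 44.2 and 41.6 FPKM in NS and at 243, 176 and 178 FPKM in HS. It measured 132, 85.0 and 108 FPKM in drug-loaded MNs and 51.9, 134 and 66.6 FPKM in 5-Fu injection. NS was the tightest group, at 42.4 ± 1.60 FPKM (SD, n = 3), all treated samples lay above it, and all HS samples lay above the treated ones. EMILIN1 rose in HS with a log2 fold change of 2.19 ± 0.30 (SE, limma adjusted p = 0.00225).

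Then, the 8 genes were counted for HS against NS, the comparison that asks what scarring changes. FBN1, FBN2, MFAP4, FBLN2, FBLN5 and EMILIN1, 6 of 8, were differentially expressed genes (DEGs) with higher expression in HS, where a DEG is a gene whose log2 fold change on the log2(FPKM + 1) scale lies beyond 1 in either direction and whose limma adjusted p is below 0.05. Over all tested genes, 3.53% were DEGs with higher expression in HS. The HS samples lay entirely above the NS samples in 7 of 8, against 18% of all tested genes. The median log2 fold change was 1.93 for the 8 genes and -0.01 for all tested genes. Of the fibroblast markers, 6 of 8 measured were also DEGs with higher expression in HS, and the part of the fibroblast content in the result was not tested. Among the genes of other cell types, SOX10 of the nerve list and KRT5 of the keratinocyte list were DEGs with lower expression. MATN4 was the only DEG of the cartilage list, with higher expression. The 11 tested cartilage markers had a median log2 fold change of -0.65, from -2.20 to 2.31.

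**Figure D2:**
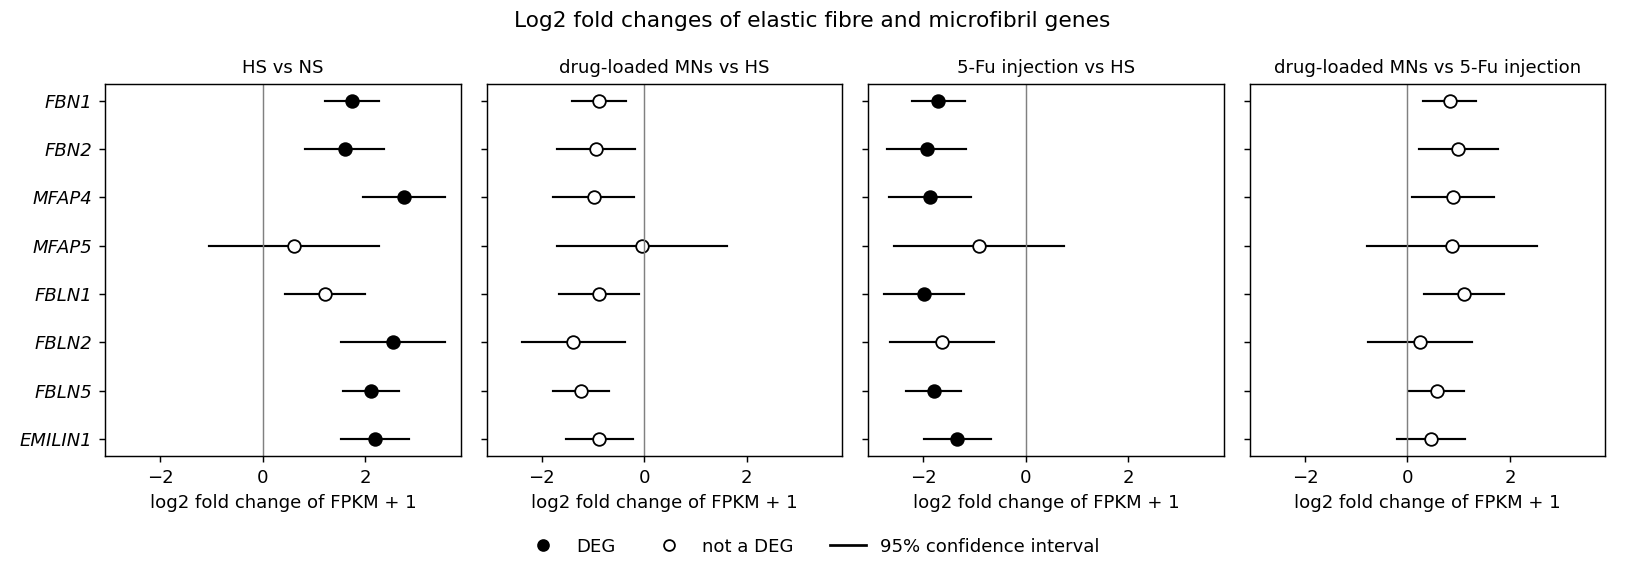
Log2 fold changes of FPKM + 1 from limma for the 8 genes in 4 comparisons, with 95% confidence intervals as lines. Filled points are DEGs: 6 genes in HS vs NS, 6 in 5-Fu injection vs HS and 0 in the panels with drug-loaded MNs. The drug-loaded MNs vs HS value of MFAP5, -0.05, changes sign with the scaling between samples.

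The fold changes of the 8 genes were smaller than that of type I collagen. COL1A1, the chain of type I collagen that dominates scar matrix, was expressed at 705 to 896 FPKM in NS and at 12719 to 18970 FPKM in HS, a log2 fold change of 4.34 ± 0.64 (SE, limma adjusted p = 0.00334). The log2 ratio of FBN1 to COL1A1 within a sample was -3.99 ± 0.14 in NS and -6.56 ± 0.28 in HS (SD, n = 3 each), and that of MFAP4 to COL1A1 was -1.05 ± 0.29 in NS and -2.63 ± 0.17 in HS. Both ratios were lower in all HS than in all NS samples. FBN1 thus stood at 1 part to about 15.9 parts of COL1A1 in normal skin and at 1 part to about 94.6 parts in scar. These ratios were added after the values were seen and are given without a test. PDGFRB, a receptor of fibroblasts and pericytes, differed by 0.99 ± 0.20 on the log2 scale (SE, limma adjusted p = 0.0133), and its HS range of 161 to 184 FPKM lay above the NS range of 78.1 to 104 FPKM. It had the lowest value of the 8 tested fibroblast markers, whose median log2 fold change was 2.79, from 0.99 to 4.48.

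In drug-loaded MNs, the ratio of FBN1 to COL1A1 was -6.37 ± 0.21 and that of MFAP4 to COL1A1 was -2.52 ± 0.23 (SD, n = 3 each), and both ranges overlapped those of HS. In 5-Fu injection the ratio of FBN1 to COL1A1 was -4.40, -7.08 and -5.34 in the 3 replicates, and that of MFAP4 to COL1A1 was -1.35, -2.76 and -1.32. Replicates 1 and 3 lay between the NS and HS samples, with MFAP4 to COL1A1 in replicate 3 just within the NS range, and replicate 2 lay below every HS sample for both ratios.

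**Figure D3:**
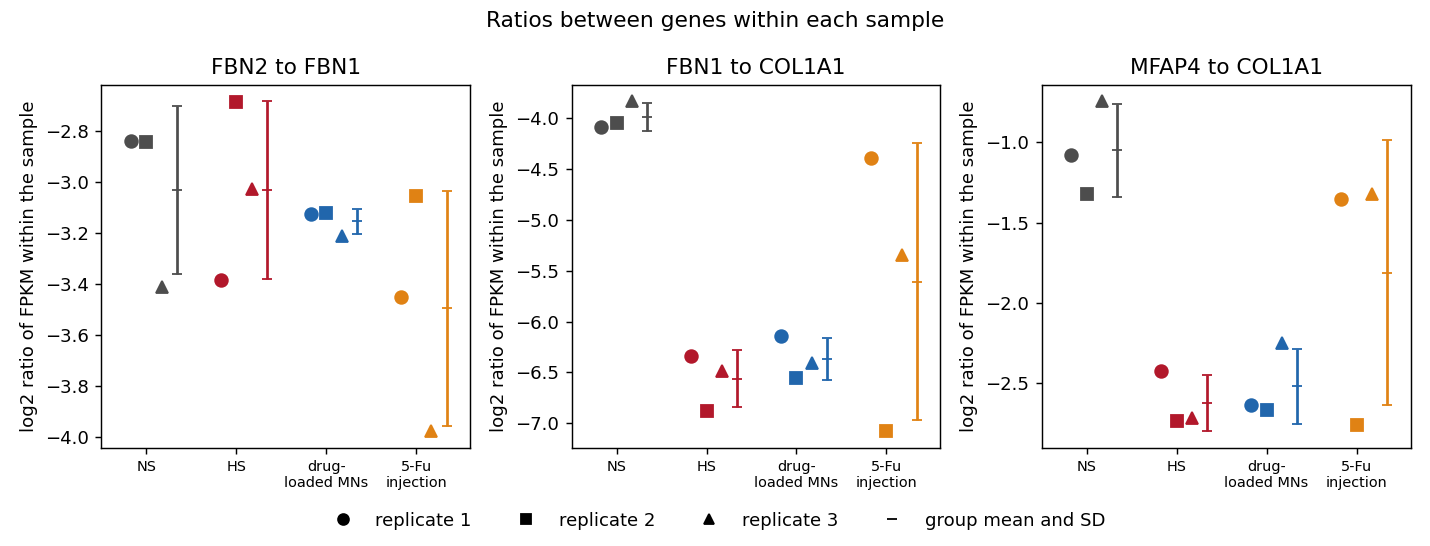
Log2 ratios of FPKM within each sample for FBN2 to FBN1, FBN1 to COL1A1 and MFAP4 to COL1A1, by group. Points are samples, and bars give the group mean ± SD of 3 samples. FBN1 to COL1A1 falls from -3.99 in NS to -6.56 in HS, with drug-loaded MNs at -6.37 and the 5-Fu injection samples spread from -7.08 to -4.40.

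Next, each treatment was set against untreated scar, to ask whether it lowered these transcripts. Both comparisons use the same 3 HS samples, and their values are therefore not independent. After drug-loaded MNs, 0 of 8 genes were DEGs by limma, against 0.00753% of all tested genes in either direction. The paper, with DESeq2 on counts at the same thresholds, reported more DEGs over all genes for this comparison. At an unadjusted limma p under 0.05, 7 of 8 genes passed, all lower in drug-loaded MNs, against 4.12% of all tested genes, and limma voom on reads counted back also called 0 of 8. The drug-loaded MNs samples lay entirely below HS in the same 7 of 8, all but MFAP5, against 10.3% of all tested genes. The median log2 fold change was -0.91 for the 8 genes and -0.02 for all tested genes. Markers of other cells differed between these groups as well, with 0 DEGs among them. The 7 tested keratinocyte markers had a median log2 fold change of 1.28, with sums of 3710 to 8735 FPKM in drug-loaded MNs against 1351 to 1944 in HS. The 8 fibroblast markers had a median of -0.62. Their sums, led by the collagen chains, did not overlap, while PDGFRB, THY1 and FAP each overlapped between the groups. The part of these markers in the result was not tested.

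FBLN5 had the lowest adjusted p of this comparison, with a log2 fold change of -1.23 ± 0.25 (SE, 95% confidence interval -1.77 to -0.69, limma adjusted p = 0.204). The value of FBLN2 was -1.38 ± 0.46 (SE, limma adjusted p = 0.406), or -0.77 without HS replicate 1. FBN1 differed by -0.88 ± 0.24 (SE, limma adjusted p = 0.30). MFAP4 and FBN2 measured -0.98 and -0.94, and FBLN1 and EMILIN1 both -0.88. For MFAP5, the difference was -0.05 ± 0.76 (SE, 95% confidence interval -1.71 to 1.61, limma adjusted p = 0.991), and it turned positive with quantile normalization (0.04) and with rescaling to total reads (0.10). The 7 other differences thus lay between -1.38 and -0.88 on the log2 scale, with 95% confidence intervals below 0, but did not pass after adjustment over all genes.

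After 5-Fu injection, FBN1, FBN2, MFAP4, FBLN1, FBLN5 and EMILIN1, 6 of 8, were DEGs with lower expression than HS, against 1.78% of all tested genes. The 5-Fu injection samples lay entirely below HS in 7 of 8, all but MFAP5, against 16.4% of all tested genes. The median log2 fold change was -1.75 for the 8 genes and 0.02 for all tested genes. FBN1 fell by 1.71 ± 0.24 and FBLN5 fell by 1.80 ± 0.25 on the log2 scale (SE, limma adjusted p = 0.0184 for both). FBLN1 fell by 1.98 ± 0.35 (SE, limma adjusted p = 0.0266), and with both fibulin-1 rows summed the log2 fold change was -1.86 (limma adjusted p = 0.0269). FBN2 fell by 1.93 ± 0.35 (SE, limma adjusted p = 0.0267), MFAP4 fell by 1.87 ± 0.36 (SE, limma adjusted p = 0.0272) and EMILIN1 fell by 1.34 ± 0.30 (SE, limma adjusted p = 0.0372). FBLN2 measured -1.63 ± 0.46 (SE, limma adjusted p = 0.0649) and MFAP5 -0.92 ± 0.76 (SE, limma adjusted p = 0.47), and neither passed.

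These 6 calls rested on the full set of samples. Without HS replicate 1, 2 or 3, or without 5-Fu injection replicate 1 or 3, 0 of 8 genes were called, although the log2 fold changes of the 6 genes stayed between -2.12 and -1.05 and their limma adjusted p ranged from 0.0544 to 0.128. In those fits 0% to 0.0602% of all tested genes were DEGs with lower expression. Without 5-Fu injection replicate 2, which was the highest of its group in all 8 genes, 7 of 8 were called, FBLN2 among them (log2 fold change -1.95, limma adjusted p = 0.0328), against 3.76% of all tested genes with lower expression. With HS and 5-Fu injection alone in the fit, 0 of 8 and 0 of all tested genes were called, and limma adjusted p was 0.0948 for FBN1. Of the fibroblast markers, COL1A1, COL3A1 and LUM, 3 of 8, were also DEGs with lower expression after 5-Fu injection. MATN4 was the only DEG of the cartilage list (-1.99), whose 11 tested genes had a median of 0.02, from -1.99 to 0.88. The keratinocyte list held 0 DEGs, with a median log2 fold change of 0.52 for its 7 tested genes. Its sums, at 2787 to 5407 FPKM in 5-Fu injection, lay above the 1351 to 1944 in HS, although DSC1 and CDH1 had negative values. The immune list had a median of 0.75 and 0 DEGs. Its genes PTPRC, CD79B and CD68 lay entirely above HS, while CSF1R and LYZ had negative values. The part of these lists in the result was not tested.

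The treatments were also compared directly. With drug-loaded MNs set against 5-Fu injection, 0 of 8 genes were DEGs by limma, against 0% of all tested genes, and limma voom on reads counted back also called 0. At an unadjusted limma p under 0.05, 5 of 8 genes passed, all higher in drug-loaded MNs, against 8.15% of all tested genes. FBLN1 alone had groups that did not overlap, against 8.64% of all tested genes with drug-loaded MNs higher. Its log2 fold change was 1.10 ± 0.35 (SE, 95% confidence interval 0.32 to 1.88, limma adjusted p = 0.25). FBN1 measured 0.82 (95% confidence interval 0.30 to 1.34, limma adjusted p = 0.25), FBN2 0.99 (0.22 to 1.76, limma adjusted p = 0.272), MFAP4 0.89 (0.10 to 1.68, limma adjusted p = 0.306) and FBLN5 0.57 (0.03 to 1.11, limma adjusted p = 0.318). MFAP5, FBLN2 and EMILIN1 measured 0.87, 0.25 and 0.46, with intervals that included 0. Without 5-Fu injection replicate 2, again 0 of 8 were called, with the lowest limma adjusted p at 0.0627 for MFAP4 (log2 fold change 1.38). The intervals reach differences of over 1 on the log2 scale for all 8 genes, so these samples do not show that the treatments act alike. Compound, dose and release differ between the patch, with its prodrug of 5-fluorouracil acetic acid, and the injection of 5-fluorouracil.

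The distance that remained to normal skin was then measured. In drug-loaded MNs, MFAP4 was the only DEG of the 8 against NS, with a log2 fold change of 1.77 ± 0.36 (SE, limma adjusted p = 0.0469). Over all tested genes, 0.79% were DEGs with higher expression in drug-loaded MNs than in NS. The MFAP4 call did not pass when any 1 of the 6 samples was left out (limma adjusted p = 0.0732 to 0.179, with log2 fold changes of 1.58 to 1.87). Of the fibroblast markers, 4 of 8 were DEGs with higher expression in drug-loaded MNs than in NS, and SOX10 of the nerve list was a DEG with lower expression (-1.74), and their part in the result was not tested. In 5 of 8 genes, FBN1, MFAP4, FBLN2, FBLN5 and EMILIN1, the drug-loaded MNs samples lay entirely above NS, against 11.5% of all tested genes. EMILIN1 measured 1.31 ± 0.30 (SE, limma adjusted p = 0.0751), FBLN2 1.15, FBLN5 0.89, FBN1 0.86, FBN2 0.66, MFAP5 0.57 and FBLN1 0.33.

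In 5-Fu injection, 0 of 8 genes were DEGs against NS by limma, against 0.00753% of all tested genes, and limma voom on reads counted back also called 0. At an unadjusted limma p under 0.05, 2 of 8 genes, MFAP4 and EMILIN1, passed, both higher in 5-Fu injection, against 7.93% of all tested genes. EMILIN1 (0.85 ± 0.30, SE, limma adjusted p = 0.247) and FBLN2 (0.91 ± 0.46, SE, limma adjusted p = 0.375) had samples entirely above NS, against 9.6% of all tested genes. MFAP4 measured 0.89 and FBLN5 0.32. Without 5-Fu injection replicate 2, MFAP4, EMILIN1 and FBLN2 measured 0.39, 0.46 and 0.58. In that fit 1 of 8 genes had an unadjusted limma p under 0.05, counted over both directions and not necessarily among these genes. FBN1 measured 0.03 ± 0.24 (SE, 95% confidence interval -0.49 to 0.55, limma adjusted p = 0.958), a value that turned to -0.05 with quantile normalization and to -0.19 with rescaling to total reads. FBN2, MFAP5 and FBLN1 measured -0.33, -0.30 and -0.77, FBLN1 with an unadjusted limma p of 0.0517. For FBLN1, 5-Fu injection replicates 1 and 3, at 55.3 and 38.4 FPKM, lay below all NS samples, at 78.8 to 158 FPKM.

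The wider elastic fibre pathway was read from 8 further lists of 57 genes in all, of which 40 had a row and 36 were tested. In HS against NS, 14 of 36 were DEGs with higher and 0 with lower expression, against 3.53% and 1.48% of all tested genes, and the median log2 fold change of the 36 was 0.85. In drug-loaded MNs against HS, 0 of 36 were DEGs by limma (median -0.42), against 0.00753% of all tested genes. In 5-Fu injection against HS, 10 of 36 were DEGs with lower and 0 with higher expression (median -0.68), against 1.78% of all tested genes with lower expression. Without 5-Fu injection replicate 2, 13 of 36 were called lower, against 3.76%, and without any 1 of the other 5 samples of that comparison, 0 of 36 were called. In drug-loaded MNs against NS, 5 of 36 were DEGs, all higher, against 0.79% of all tested genes.

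Cross-linking enzymes did not move as 1 group in HS against NS. Of the 5 lysyl oxidases, LOXL1, the member that cross-links elastin on the fibulin-5 scaffold, and LOXL2 were DEGs with higher expression in HS. LOXL1 was expressed at 61.3, 47.5 and 77.7 FPKM in NS, 487, 399 and 336 FPKM in HS, 203, 211 and 181 FPKM in drug-loaded MNs and 102, 224 and 114 FPKM in 5-Fu injection. HS stood clear of all other groups, and all treated samples stood above NS. Its log2 fold change was 2.71 ± 0.28 in HS against NS (SE, limma adjusted p = 0.000965), -1.54 in 5-Fu injection against HS (limma adjusted p = 0.0267) and 1.68 in drug-loaded MNs against NS (limma adjusted p = 0.0242). LOX, the first described lysyl oxidase, measured 212 ± 48.2 FPKM in NS and 202 ± 67.2 FPKM in HS (SD, n = 3 each), a log2 difference of -0.11 (limma adjusted p = 0.874). In HS against NS, LOXL2 measured 2.21 ± 0.42 (SE, limma adjusted p = 0.0111), and LOXL3 and LOXL4 measured 0.25 and -0.72. Against HS, all 5 lysyl oxidases had negative log2 fold changes, from -1.02 to -0.06 in drug-loaded MNs and from -1.54 to -0.40 in 5-Fu injection.

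Relatives of the structural genes moved in part. Among the 7 tested other fibulins and emilins, HMCN1, a large fibulin-type matrix protein, and EMILIN3 were DEGs with higher expression in HS, at log2 fold changes of 2.02 and 1.42, and HMCN1, EMILIN3 and EFEMP1 were DEGs with lower expression after 5-Fu injection, at -1.43, -1.35 and -1.09. Both latent TGF-β binding proteins with a row, LTBP1 and LTBP2, were DEGs with higher expression in HS, at 1.55 and 1.94, and with lower expression after 5-Fu injection, at -1.31 and -1.97. LTBP2 was uneven within HS, at 96.7, 44.6 and 26.6 FPKM against 11.6 to 12.4 FPKM in NS. Of the 4 tested microfibril-binding ADAMTS and ADAMTSL proteins, ADAMTS17 was a DEG in HS (2.94, limma adjusted p = 0.00377) and after 5-Fu injection (-2.13, limma adjusted p = 0.0315).

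Among the 4 tested other microfibril proteins, the proteoglycans VCAN and BGN and the adhesion protein TGFBI were DEGs with higher expression in HS, at 4.39, 2.01 and 1.64. BGN was also a DEG after 5-Fu injection, at -1.04, and BGN and TGFBI were DEGs in drug-loaded MNs against NS, at 1.60 and 1.38. VCAN spread widely after 5-Fu injection, at 3.45, 89.2 and 16.4 FPKM, where replicate 2 approached the lowest HS value of 92.0 FPKM. Of the 5 tested elastin receptors, GLB1 (1.36) and ITGB5 (1.21) were DEGs in HS and ITGAV (-1.11) after 5-Fu injection.

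Of the 7 tested elastin-degrading proteases, MMP2 and CTSK were DEGs with higher expression in HS, at 3.21 and 1.65. MMP2, a gelatinase that also cleaves elastin, was expressed at 148, 95.5 and 108 FPKM in NS and at 1020, 1118 and 1074 FPKM in HS. It was a DEG after 5-Fu injection against HS (-1.58, limma adjusted p = 0.028) and in drug-loaded MNs against NS (2.45, limma adjusted p = 0.016). In drug-loaded MNs against HS, MMP2 measured -0.76 (limma adjusted p = 0.525) and was not a DEG. The drug-loaded MNs samples, at 481 to 874 FPKM, nonetheless lay entirely below HS. The macrophage elastase MMP12 was not a DEG in any comparison, with 5-Fu injection samples at 104, 13.5 and 11.2 FPKM against 1.02 to 5.78 FPKM in NS. Neither of the 2 tested elastase inhibitors was a DEG in any comparison: TIMP1 measured 0.60 and TIMP3 -0.21 in HS against NS.

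**Figure D4:**
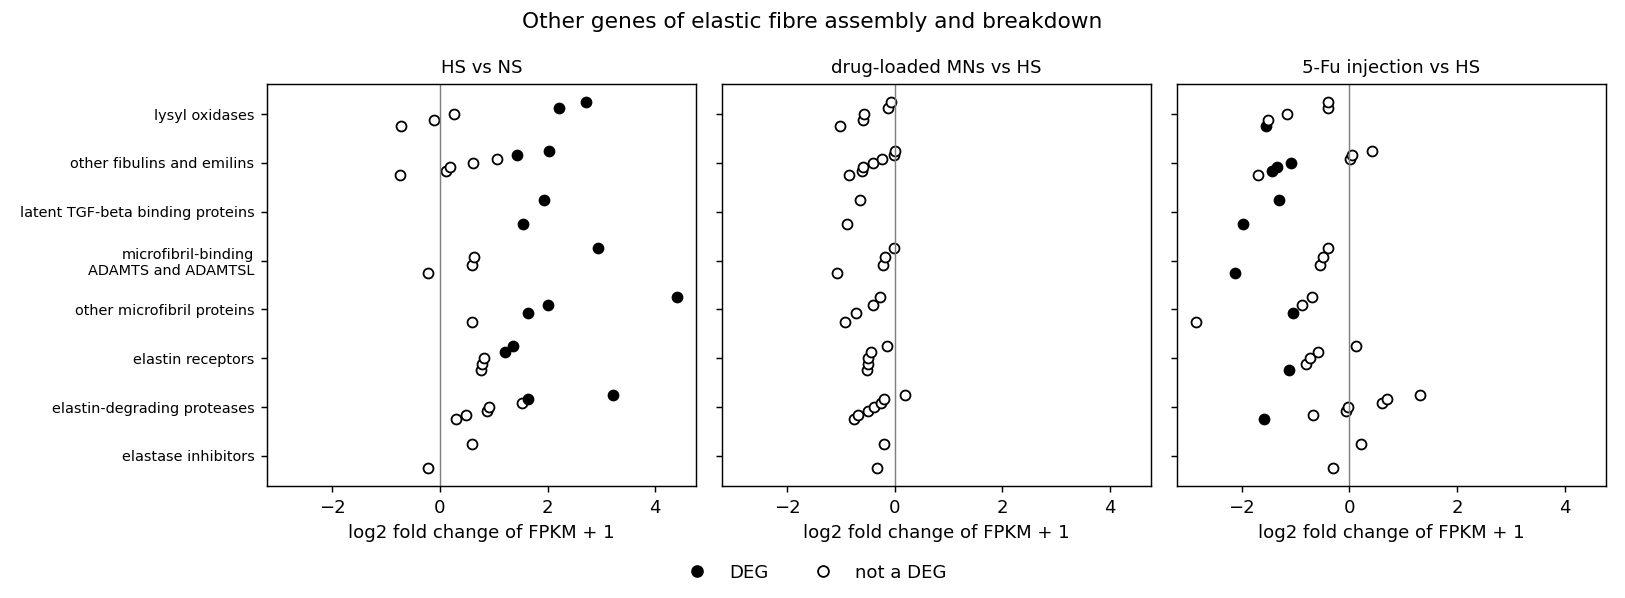
Log2 fold changes of FPKM + 1 from limma for the 36 tested genes of the 8 further elastic fibre lists in 3 comparisons. Each point is a gene, and filled points are DEGs: 14 higher in HS vs NS, 0 in drug-loaded MNs vs HS and 10 lower in 5-Fu injection vs HS.

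Finally, the genes whose pattern was most like that of the 8 were sought among all tested genes with a symbol, by Pearson correlation over the 12 samples with the mean of the 8 gene-centred log2 values. That mean was -0.95 to -0.52 in NS, 1.08 to 1.14 in HS, -0.12 to 0.45 in drug-loaded MNs and -0.99 to 0.13 in 5-Fu injection. The 5 closest genes were EPB41L2 (0.991), FSTL1 (0.990), GPR173 (0.986), TSKU (0.979) and ADGRA2 (0.978). FSTL1, a secreted glycoprotein, was expressed at 88.1 to 114 FPKM in NS, 473 to 492 FPKM in HS, 169 to 333 FPKM in drug-loaded MNs and 87.1 to 237 FPKM in 5-Fu injection. The 12 samples share their groups, so these values describe likeness of pattern and no more.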

How the data were processed

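The authors captured polyadenylated RNA on poly-T beads and sequenced it on an Illumina NovaSeq instrument. The aligner, counting tool and genome build are not given in the sources used here, and coordinates are those of the table. The authors deposited 1 table of FPKM values for 29587 genes with their gene lengths. FPKM times length gave whole reads in 100% of values (tolerance 0.01, up to 5000 reads per value). The deposited scaling is not by total reads: relative to the reads on genes, the library size behind the FPKM was 1.12 to 1.20 in NS and 0.873 to 0.932 in HS.

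Samples were grouped by their labels, and the replicates differed from each other by more than counting noise. One linear model of log2(FPKM + 1) over the 12 samples of 4 groups was fitted with limma 3.58.1 in R 4.3.3, with moderated variances that follow a trend on expression. Genes needed a mean FPKM of 1 or more to be tested (13287 did), and p-values were adjusted over them by the Benjamini-Hochberg method within each of 6 comparisons. The authors used DESeq2 on counts, and their thresholds (adjusted p under 0.05, absolute log2 fold change above 1) were kept. In each comparison for which they reported DEGs over all genes, their number was higher than the number called here. Fold changes on this scale understate low genes. The script was tested on simulated data. The genes and the pathway and marker lists were chosen with earlier results of these data known, so they are no independent evidence. Named genes are the 8 genes, every pathway gene called in any comparison, the leading markers and the 5 genes of closest pattern. LOX, LOXL3, LOXL4, MMP12, TIMP1, TIMP3 and single markers were named after their values were seen. Marker lists without a called gene in any comparison were those of smooth muscle and pericytes (528 to 2349 summed FPKM over all samples), endothelium (257 to 397), skeletal muscle (47.1 to 553), adipocytes (244 to 599) and immune cells (59.7 to 277). Sums were 1351 to 8735 for keratinocytes, 514 to 5772 for cartilage and 126 to 983 for nerve. Alternatives covered the pseudocount, the filter, the scaling, limma voom on reads counted back, the groups in the fit, the trend, the replicate block and each replicate left out. Sequences were not used here, and 1 gene is not reported.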

Additional observations from a re-analysis of the deposited data

How the results depend on the processing

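In HS against NS, 6 of 8 elastic fibre genes were called under the main and all other settings except leaving out a replicate, where 5 to 7 were called. In 5-Fu injection against HS, 6 became 4 without a filter on low values and with the replicate block (MFAP4 at limma adjusted p = 0.0525 and 0.0641, EMILIN1 at 0.0531 and 0.0677, respectively), 0 with only the groups compared in the fit, and 0 to 7 with a replicate left out. In drug-loaded MNs against HS, 0 became 1 with only the groups compared (FBLN5, limma adjusted p = 0.0486). In drug-loaded MNs against NS, the 1 call (MFAP4) became 0 without a filter, with quantile normalization, with rescaling to total reads, without a trend, with the replicate block and with any replicate left out (0 to 0), and 2 with only the groups compared (EMILIN1 added, limma adjusted p = 0.0259). Fewer samples enter the fits with fewer groups or replicates, and more genes are adjusted over without a filter. The cause of the other changes was not tested. Each group was made of different rabbits by the authors' description, while the labels name no rabbit, so replicate numbers pair no samples by design. The deviations of same-numbered samples correlated at -0.27 to 0.44, and the replicate block changed no other call of the 8 genes. The log2 ratio of FBN2 to FBN1 in drug-loaded MNs moved from -3.15 to -3.03 with a pseudocount of 1.

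Direction changed for genes that were not called. MFAP5 in drug-loaded MNs against HS went from -0.05 to 0.039 (quantile normalization) and 0.10 (rescaling to total reads), and ranged from -0.92 to 0.76 with a replicate left out. FBN1 in 5-Fu injection against NS went from 0.03 to -0.048 (quantile normalization) and -0.19 (rescaling), and ranged from -0.19 to 0.27 with a replicate left out. FBN2 in that comparison, at -0.33, ranged from -0.70 to 0.051, the last without 5-Fu injection replicate 3. Of the single-gene values with a replicate left out, 240 kept direction and call, 40 lost and 2 gained a call, and 6 changed sign. Under the other settings the numbers were 417, 15, 2 and 4.

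Rescaling to total reads shifted the median of all genes by -0.33 in HS against NS, by 0.11 and 0.13 in drug-loaded MNs and 5-Fu injection against HS and by -0.19 in both against NS. It turned 469 higher of 665 DEGs in HS against NS into 311 of 1060, 68 of 304 in 5-Fu injection against HS into 125 of 285, and 105 of 116 in drug-loaded MNs against NS into 66 of 86. Over all genes, the 304 DEGs of 5-Fu injection against HS became 93 without a filter, 99 with the block, 0 with only the groups compared and 0 to 803 with a replicate left out, and the 116 of drug-loaded MNs against NS became 51 without a filter, 23 with the block and 0 to 113 with a replicate left out. The 665 of HS against NS became 382, 419 and 440 when NS replicate 1, HS replicate 1 or HS replicate 2, respectively, was left out. With 3 rabbits per group, an adjusted p above 0.05 does not show equal expression.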

Other observations

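MFAP5 and FBLN2 were the members of the lowest pairwise correlation among the 8 genes (-0.04), and the tested genes closest to each were looked up after these values were seen. PDPR (Pearson r = 0.938 over the 12 samples) and MOXD1 (0.911) were closest to MFAP5. MOXD1, a secretory pathway monooxygenase, was expressed at 33.9, 22.6 and 26.0 FPKM in NS, 10.7, 58.0 and 47.8 FPKM in HS, 72.7, 44.3 and 16.2 FPKM in drug-loaded MNs and 34.2, 40.8 and 24.6 FPKM in 5-Fu injection. As with MFAP5, HS replicate 1 and drug-loaded MNs replicate 3 lay below the NS samples, while the other samples of those groups lay above them.

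TEAD4 (0.970) and CHST2 (0.960) were closest to FBLN2. CHST2, a carbohydrate sulfotransferase, was expressed at 19.9, 14.3 and 19.9 FPKM in NS, 106, 50.1 and 43.4 FPKM in HS, 30.2, 33.3 and 32.7 FPKM in drug-loaded MNs and 19.4, 32.0 and 38.7 FPKM in 5-Fu injection. HS replicate 1 was the highest of all samples for FBLN2, CHST2 and LTBP2 alike. These likenesses are descriptions over samples that share their groups, and no test was made.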
